A study of Mus musculus with 6 samples.

Results

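The core circadian clock genes Per1, Per2, Per3, Cry1, Cry2, Arntl, Clock, Nr1d1, Nr1d2 and Dbp were examined for chromatin accessibility in muscle stem cells (MuSCs), the Pax7-expressing stem cells that repair skeletal muscle. ATAC-seq, in which the transposase Tn5 inserts adapters into open DNA, was done on MuSCs taken straight from control mice and from Taf4a sKO mice, all on the C57BL/6 background, and each genotype had 3 libraries. Taf4a sKO mice carry Pax7CRE-ERT and homozygous floxed Taf4a and received tamoxifen at 8 to 20 weeks of age, which deletes exons 11 to 12 of Taf4a, a subunit of the general transcription factor TFIID, in Pax7-expressing cells. Per the study's methods, controls were littermates that also carried homozygous floxed Taf4a, either without the Cre or with it. The control libraries are titled WT, and the study also lists wild-type C57BL/6 mice. Which of these the ATAC-seq controls were, and whether they received tamoxifen, is not given in the sources used here, so effects of Cre or tamoxifen and of Taf4a loss cannot be told apart. Cells were sorted as SCA1-, CD45- and CD31- cells with Integrin-α7, or by a Pax7-zsGreen reporter. Mice were kept in a cycle of 12 hours of light and dark, and the time of day at which each animal was taken is not given in the sources used here, so a difference in time of day and a difference in genotype cannot be told apart at a clock gene.

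A peak belonged to a clock gene when the deposited table annotated it to that gene, or when it had no gene and lay inside the gene. This gave 46 of the 75412 peaks, 28 by annotation and 18 by position, and all 46 passed the filter of a mean value above 10. Arntl held 12 peaks, Per2 8, Cry2 7, Cry1 and Nr1d1 5 each, Per1 4 and Dbp 2, while Per3, Clock and Nr1d2 had 1 peak each. The peaks were 174 to 2053 bases wide with a median of 848.5 bases, against 590 bases for all peaks. Each value below is the authors' read count of a peak, scaled for sequencing depth and rounded. Values summed over all peaks were 37722015, 35226223 and 42803315 in the 3 control libraries and 44311913, 41661725 and 41948821 in the 3 Taf4a sKO libraries.

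The clock is a feedback loop of transcription. ARNTL (also called BMAL1) pairs with CLOCK and activates genes with E-boxes, among them the Per and Cry genes, whose proteins return to the nucleus and inhibit the pair. A further loop runs through NR1D1 and NR1D2 (REV-ERB alpha and beta), nuclear receptors that repress Arntl at ROR elements, and DBP activates genes with D-boxes as a clock output. In skeletal muscle and its stem cells these genes are known to cycle over the day.

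The promoters of these genes carry the letters of the clock's own elements to differing degrees. Promoter sequences, from 250 bases before to 50 bases after a start, were taken from RefSeq on GRCm38.p6 for 9 of the 10 genes (13 windows). Per2 was not matched. CACGTG (the E-box) was present in windows of Cry1 and Per1 and in 7.15% of all 32851 promoter windows, searched on both strands. Both Per1 windows lie at alternative RefSeq starts inside the gene (chr11:69098699-69098998 and chr11:69099902-69100201), not at the start the deposited table gives. TTATGNAA (the D-box) was present in Per1 and Per3, and in 3.38% of all windows. TAGGTCA or TGGGTCA (the ROR element core) was present in Arntl, and in 6.45% of all windows. TGACGTCA (the cyclic AMP response element) was present in no clock gene window and in 1.79% of all windows. CCAAT, the box bound by NF-Y, was present in 10 of the 13 windows, from 8 of the 9 genes, and in 37.4% of all windows. At Clock it was found only in the window furthest inside the gene (chr5:76303453-76303752). The promoter of Arntl stood out in number: 1 of its windows held 8 NF-Y boxes, and it was the only 1 of the 32851 windows with 8 or more (0.00304%), a count made after the sequence had been seen. The bases before the start sites of Arntl, Per3 and Cry1 are shown because they hold these repeated or defining boxes, with the boxes named in each line in capitals. NF-Y boxes in the Arntl sequence read ATTGG, the reverse complement of CCAAT, on the strand shown, and no box overlapped a box of another kind.
Arntl, chr7:113207215-113207464, plus strand, 7 NF-Y boxes: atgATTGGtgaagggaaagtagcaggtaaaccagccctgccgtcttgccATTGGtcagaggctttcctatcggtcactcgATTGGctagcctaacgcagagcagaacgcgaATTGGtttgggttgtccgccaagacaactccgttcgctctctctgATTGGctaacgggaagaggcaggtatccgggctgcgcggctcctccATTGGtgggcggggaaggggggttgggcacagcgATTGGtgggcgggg
Per3, chr4:151044666-151044915, minus strand, 2 D-boxes: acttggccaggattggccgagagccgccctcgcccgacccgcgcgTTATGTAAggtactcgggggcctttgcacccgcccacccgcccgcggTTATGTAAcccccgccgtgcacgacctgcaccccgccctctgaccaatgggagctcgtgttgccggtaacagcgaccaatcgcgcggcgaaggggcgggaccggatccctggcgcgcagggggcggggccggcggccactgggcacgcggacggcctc
Cry1, chr10:85185065-85185304, minus strand, 1 E-box: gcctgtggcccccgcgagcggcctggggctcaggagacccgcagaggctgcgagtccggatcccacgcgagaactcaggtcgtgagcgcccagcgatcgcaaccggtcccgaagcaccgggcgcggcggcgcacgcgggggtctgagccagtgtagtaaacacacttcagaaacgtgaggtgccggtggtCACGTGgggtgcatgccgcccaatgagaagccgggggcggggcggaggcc
A window with 2 or more D-boxes, as at Per3, was found 53 times among the 32851 windows (0.161%), also counted after the sequence had been seen. These matches describe the letters only, and none was tested for binding here.

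Across the 46 clock gene peaks, 9 rose in Taf4a sKO MuSCs, 1 fell and 36 did not pass the test (limma on log2(value + 1), Benjamini-Hochberg adjusted p under 0.05 over 75384 peaks). The background in the same fit was high, since 28.0% of all peaks rose and 13.9% fell, so that 19.6% of the clock gene peaks rose against 28.0% and 2.17% fell against 13.9%. The median log2 change of the clock gene peaks was 0.16, and that of all peaks was 0.10, with a middle range of -0.20 to 0.47. Of the 9 peaks that rose, 6 lay at Arntl, and the others were single peaks of Per2, Cry2 and Nr1d1. The peak that fell carries the annotation of Nr1d1 but lies inside Thra. The genes Per1, Per3, Cry1, Clock, Nr1d2 and Dbp had no peak past the threshold. By the study's thresholds for gained and lost peaks, a log2 ratio of the group means beyond 1, 3 peaks were gained, all at Arntl, against 7.02% of all peaks, and 0 were lost, against 5.36% of all peaks. Scaling between libraries mattered for these counts. With TMM factors the median of all peaks moved from 0.10 to -0.01, and 11 clock gene peaks rose and 5 fell, against 25.4% and 22.3% of all peaks. The same 9 and 1 peaks were among them. Without control replicate 3, the control library with the largest total, 20 rose and 3 fell, against 37.8% and 12.9% of all peaks.

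**Figure D1:**
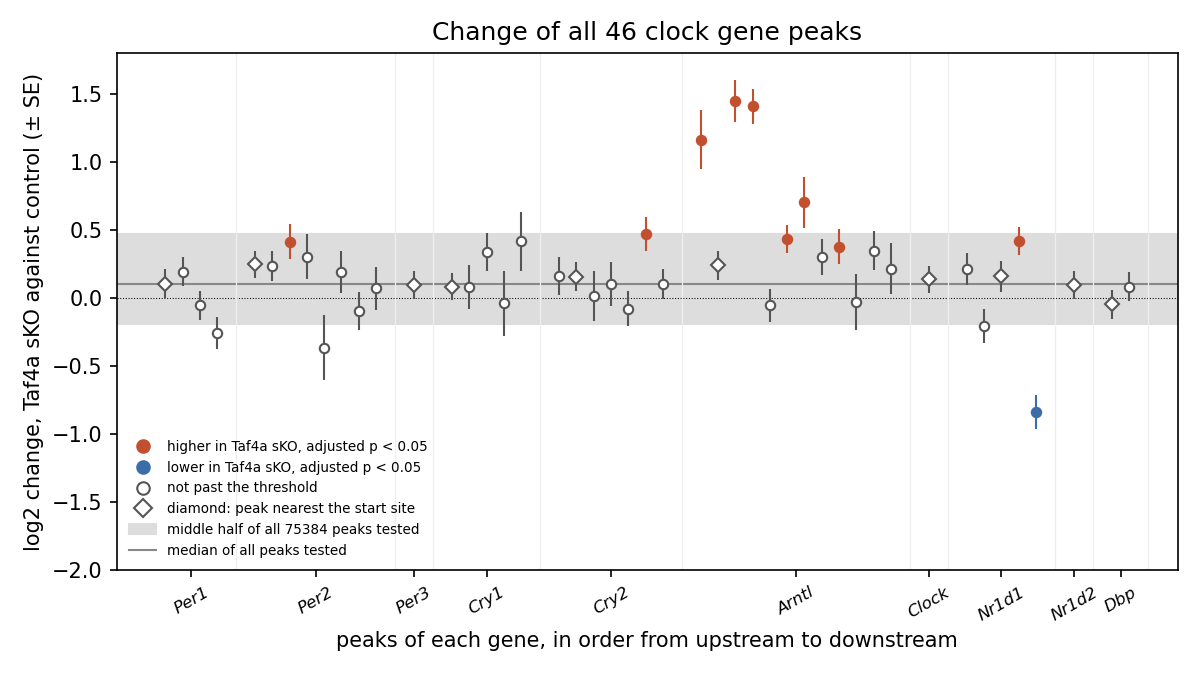
Log2 change in Taf4a sKO against control MuSCs (y axis, with its SE) for each of the 46 clock gene peaks, grouped by gene and ordered from upstream to downstream, with 3 libraries per genotype. The filled points are the 9 peaks that rose and the 1 that fell, the diamonds are the peaks nearest each start site, and the grey band is the middle range of all peaks tested (-0.20 to 0.47). The highest points, all at Arntl, reach a log2 change of 1.45.

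The promoters of all 10 genes were open in both genotypes. Per kilobase of peak, control levels ran from 4586 normalized reads at Nr1d2 through 4050 at Per1, 3384 at Nr1d1, 2761 at Arntl, 2287 at Per3, 2219 at Cry2, 2067 at Dbp, 1949 at Per2 and 1721 at Cry1 to 1631 at Clock. Among the peaks within 1000 bases of a start site, these levels lay between percentile 77.2 (Clock) and percentile 99.9 (Nr1d2). Ranges of neighbours in this order overlapped between control libraries, but within a library the order of neighbours held in all 3 control libraries, except that of Per3 and Cry2, which held in 2 of 3. Nr1d2 spanned 4136 to 5057 over its 3 control libraries and Per1 3662 to 4437, whereas Clock spanned 1507 to 1809, below all control values of the 4 highest genes.

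None of the 10 promoter peaks passed the test. Among the 14094 peaks within 1000 bases of a start site, 13.1% rose and 6.59% fell. With these shares, 10 peaks are too few to set 0 calls apart from the background. At an unadjusted p under 0.05, limma gave 2 of the 10 (Per2 and Arntl), and with TMM factors 2 rose (Per2 and Arntl) and 1 fell (Dbp), against 12.6% and 22.1% of the peaks near start sites. The count also changed when control replicate 3 was left out. Without it 5 of the 10 rose, those of Per2, Arntl, Cry2, Clock and Nr1d1 (adjusted p of 0.00336, 0.00135, 0.013, 0.0234 and 0.0242, limma), against 29.5% of the peaks near start sites, and with any other library left out 0 passed. The median log2 change of the 10 was 0.12, against 0.06 for all such peaks. Under TMM factors these medians were 0.01 and -0.05.

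Among the activators, the Arntl promoter peak (chr7:113206731-113208332) had values of 4301, 3905 and 5065 in control and 5587, 4910 and 5095 in Taf4a sKO libraries, a log2 change of 0.24 (SE 0.11, adjusted p = 0.0729, limma). The Clock promoter peak (chr5:76303562-76305333) had 2795, 2671 and 3206 in control and 3290, 3079 and 3126 in Taf4a sKO libraries, a log2 change of 0.14 (adjusted p = 0.303, limma) that turned to -0.01 when libraries were set to equal total signal. At both genes control replicate 3 reached into the range of the Taf4a sKO libraries.

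Of the inhibitors, Per2 came nearest to the threshold. Its promoter peak (chr1:91457805-91459857) had values of 4090, 3560 and 4353 in control and 4921, 4864 and 4428 in Taf4a sKO libraries, a log2 change of 0.25 (adjusted p = 0.0533, limma). Every Taf4a sKO value there was above every control value. The Per1 promoter peak (chr11:69094572-69095485) had 3702, 3347 and 4055 against 4414, 3746 and 3784, with adjusted p = 0.446, and the Per3 peak (chr4:151044123-151045336), which the annotation places at a start site inside an intron of Camta1, had 2848, 2500 and 2982 against 3168, 2864 and 2841, with adjusted p = 0.497 (both limma). The Cry1 promoter peak (chr10:85183726-85185710) had 3354, 3214 and 3679 against 3689, 3556 and 3592, and the Cry2 peak (chr2:92433596-92435235) had 3611, 3198 and 4109 against 4256, 3974 and 3884, with adjusted p of 0.528 and 0.243 (limma). Control and Taf4a sKO values overlapped at Per1, Per3, Cry1 and Cry2, and their log2 changes were 0.10, 0.09, 0.08 and 0.16. With TMM factors those of Per1, Per3 and Cry1 turned to -0.01, -0.02 and -0.03.

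The nuclear receptor genes and Dbp had no called change at the promoter. The Nr1d1 promoter peak (chr11:98774928-98776153) had values of 4189, 3483 and 4774 in control and 5128, 4412 and 4273 in Taf4a sKO libraries (log2 change 0.16, adjusted p = 0.286, limma). The single Nr1d2 peak (chr14:18238142-18239588) had 6607, 5985 and 7318 against 7820, 6612 and 6757 (log2 change 0.09, adjusted p = 0.515, limma), and its direction turned to -0.02 with TMM factors. At Dbp, where the promoter peak (chr7:45704307-45706344) also overlaps Car11, values were 4417, 3663 and 4555 against 4486, 3831 and 3882 (log2 change -0.05, adjusted p = 0.75, limma). With TMM factors the Dbp value became -0.16 (adjusted p = 0.0331, limma), and without control replicate 3 it became 0.01. The genotypes overlapped at all 3 promoters.

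**Figure D2:**
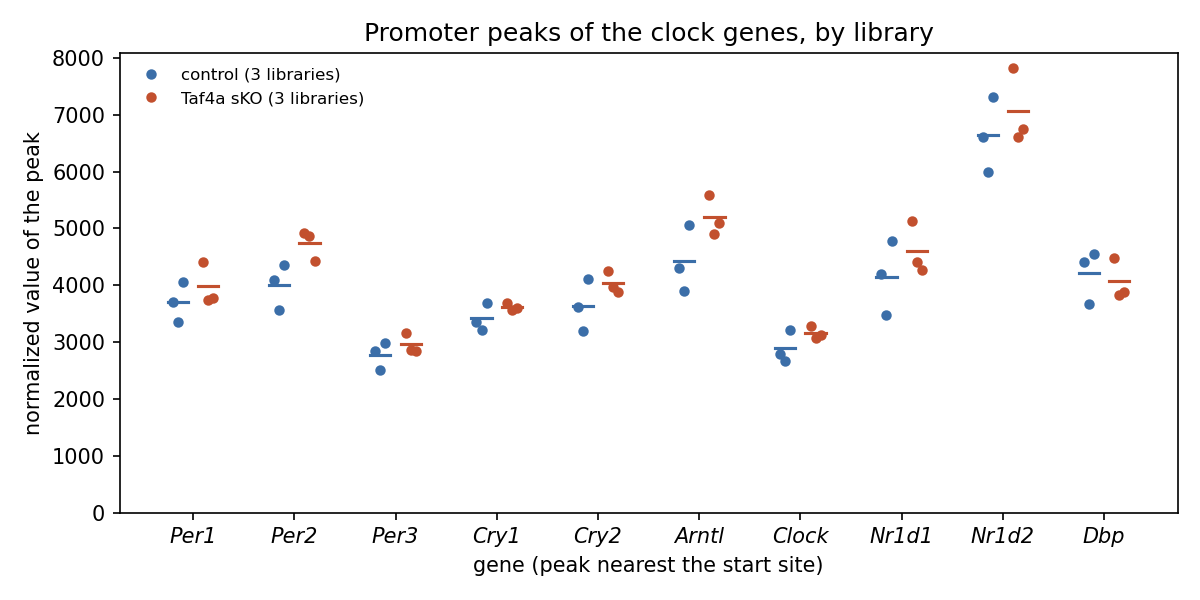
Normalized value (y axis, from 0) of the peak nearest the start site of each clock gene (x axis) in each of the 3 control and 3 Taf4a sKO libraries; points are libraries and short lines are group means. The genotypes overlap at 9 genes and are apart only at Per2, where the Taf4a sKO libraries lie between 4428 and 4921 and the control libraries between 3560 and 4353.

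Among the clock gene peaks other than the 10 nearest the deposited start sites, 9 of 36 rose and 1 fell, while among the 61290 other peaks tested 31.4% rose and 15.6% fell. Their median log2 change was 0.19, against 0.14 for all other peaks. Without Arntl, 3 of 25 rose and 1 fell, with a median of 0.10. The 26 that did not pass ran from a log2 change of -0.37 to 0.41.

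Arntl had the most peaks that rose. The gene lies on chr7:113207465-113314126 (mm10, plus strand), and 6 of its 12 peaks passed the test, all upward and scattered from 9918 bases upstream to 53200 bases downstream of the start. The middles of the 2 peaks with the greatest change at Arntl, both in an intron, are shown on the plus strand. Of the 5 kinds of box, only 1 NF-Y box (capitals) was found in these 300-base middles, while over their whole lengths the first peak held 1 NF-Y box and the second 2 NF-Y boxes and 2 ROR element cores.
Arntl intronic peak 7150 bases downstream, chr7:113214465-113214764: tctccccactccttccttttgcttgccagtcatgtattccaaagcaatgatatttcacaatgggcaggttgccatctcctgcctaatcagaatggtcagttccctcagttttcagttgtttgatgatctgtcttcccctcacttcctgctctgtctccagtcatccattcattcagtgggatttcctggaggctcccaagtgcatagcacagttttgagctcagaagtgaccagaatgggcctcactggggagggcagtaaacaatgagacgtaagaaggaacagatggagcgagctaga
Arntl intronic peak 9248 bases downstream, chr7:113216563-113216862: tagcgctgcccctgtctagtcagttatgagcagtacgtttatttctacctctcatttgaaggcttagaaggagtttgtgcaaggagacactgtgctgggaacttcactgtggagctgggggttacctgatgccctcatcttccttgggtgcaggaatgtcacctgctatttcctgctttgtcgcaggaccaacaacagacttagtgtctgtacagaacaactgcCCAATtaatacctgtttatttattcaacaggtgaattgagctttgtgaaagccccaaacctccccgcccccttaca
For comparison, in the central 300 bases of all 75412 peaks, NF-Y boxes were found in 32.2%, ROR element cores in 8.03%, E-boxes in 5.76%, D-boxes in 4.01% and cyclic AMP response elements in 1.09%, and among the 46 clock gene peaks in 17, 6, 4, 5 and 1.

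At the first of these (peak chr7:113214261-113214968), values were 203, 210 and 318 in control and 631, 696 and 631 in Taf4a sKO libraries, or 243.7 ± 64.5 (SD, n = 3) against 652.7 ± 37.5 (SD, n = 3), a 2.68-fold rise with a log2 change of 1.45 (SE 0.16, adjusted p = 3.6e-07, limma). The neighbouring peak (chr7:113216136-113217289) had 370, 354 and 475 against 1048, 1029 and 1080, a 2.63-fold rise with a log2 change of 1.41 (SE 0.13, adjusted p = 1.6e-08, limma). At both, the lowest Taf4a sKO value was well above the highest control value; the promoter held the highest value of the gene in both genotypes. A small peak 9918 bases upstream (chr7:113197360-113197735), intergenic in GENCODE vM21, had 38, 37 and 38 against 86, 79 and 92, a 2.27-fold rise with a log2 change of 1.16 (SE 0.22, adjusted p = 0.00016, limma). These 3 peaks were the gained ones, and 3 peaks were gained with each library left out in turn.

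The other Arntl peaks that rose changed less. A peak 34934 bases downstream, centred on an exon (chr7:113241679-113243120), had 1610, 1531 and 1810 in control and 2354, 2113 and 2202 in Taf4a sKO libraries (log2 change 0.43, SE 0.10, adjusted p = 0.00169, limma). The intronic peak at chr7:113249555-113249767 had 89, 69 and 84 against 112, 134 and 150 (log2 change 0.70, SE 0.19, adjusted p = 0.0041, limma). The genotypes did not overlap at either. At chr7:113260317-113261013 values were 472, 467 and 607 against 667, 628 and 697 (log2 change 0.38, SE 0.13, adjusted p = 0.0215, limma), again with no overlap, but this call was lost with quantile normalization (adjusted p = 0.157) and when control replicate 1 or 2 or Taf4a sKO replicate 1 or 3 was left out (adjusted p 0.0544 to 0.1). The 5 remaining peaks beyond the promoter had log2 changes of -0.05 to 0.35 and did not pass. Summed over its 12 peaks, Arntl signal was 8723, 8089 and 10307 in control and 12480, 11342 and 11724 in Taf4a sKO libraries, 1.31-fold, while the sums of the other 9 genes stood between 0.995-fold (Dbp) and 1.16-fold (Per2). With TMM factors the sums of Per1, Per3, Cry1 and Nr1d2, at 1.05-, 1.06-, 1.07- and 1.06-fold, turned to 0.971-, 0.987-, 0.994- and 0.987-fold.

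**Figure D3:**
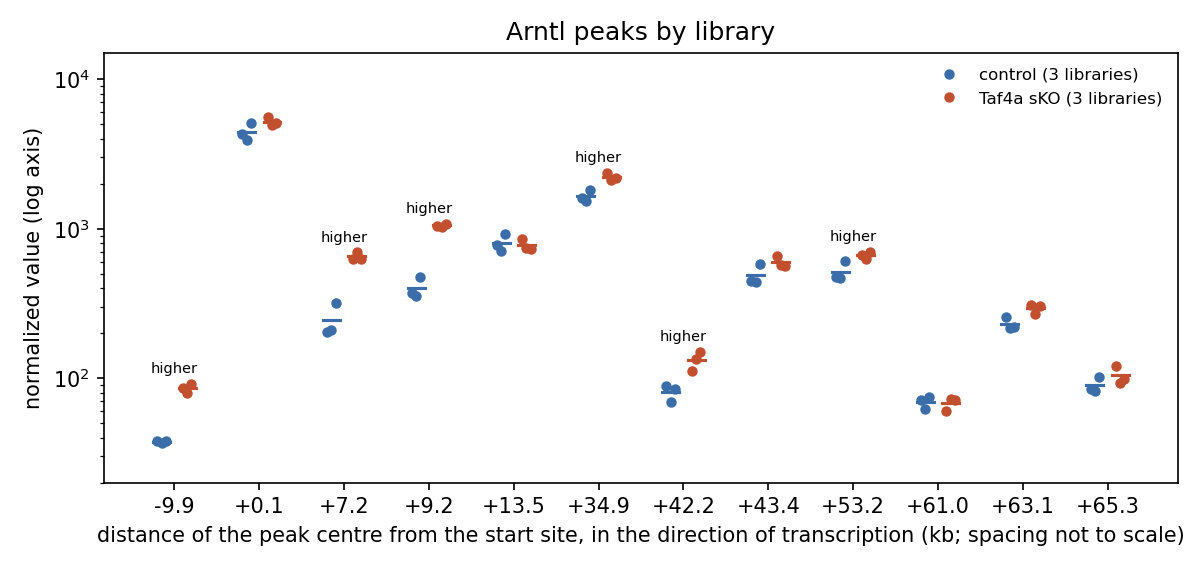
Normalized value (log axis) of the 12 Arntl peaks in 3 control and 3 Taf4a sKO libraries, in order of distance from the start site (kb, spacing not to scale); points are libraries, short lines group means, and "higher" marks the 6 peaks that passed the test. The promoter peak lies between 3905 and 5587 over both genotypes, whereas the peaks at 7150 and 9248 bases rise from 203 to 475 in control to 631 to 1080 in Taf4a sKO MuSCs.

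At Nr1d1 (chr11:98767932-98775333, minus strand) peaks moved in opposite directions. The middle of the peak that fell and a stretch of the peak that rose are shown on the plus strand, with E-boxes in capitals. The second stretch was chosen after the sequence had been seen, since it holds the closest pair of E-boxes in that peak. Over its whole length the peak that rose held 4 E-boxes, 1 D-box, 2 ROR element cores and 2 NF-Y boxes, and the peak that fell held 1 E-box and 4 NF-Y boxes, none of them within its 300 bases shown.
Nr1d1 peak downstream of the gene, chr11:98766464-98766763: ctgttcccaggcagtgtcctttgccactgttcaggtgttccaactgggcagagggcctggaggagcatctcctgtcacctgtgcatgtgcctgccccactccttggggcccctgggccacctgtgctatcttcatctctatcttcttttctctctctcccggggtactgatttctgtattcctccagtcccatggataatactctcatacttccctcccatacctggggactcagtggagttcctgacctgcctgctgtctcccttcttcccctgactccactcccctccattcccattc
Nr1d1 intronic peak, chr11:98773799-98773939: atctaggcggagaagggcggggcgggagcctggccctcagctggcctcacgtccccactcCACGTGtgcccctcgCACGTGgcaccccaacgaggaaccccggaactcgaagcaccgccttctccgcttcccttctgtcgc
The intronic peak with the E-boxes (chr11:98772714-98774484), 1734 bases downstream of the start, had values of 4785, 4455 and 5558 in control and 7034, 6443 and 6251 in Taf4a sKO libraries, a 1.33-fold rise with a log2 change of 0.42 (SE 0.10, adjusted p = 0.00197, limma). No Taf4a sKO value was as low as a control value. The peak that fell (chr11:98765632-98767594), 8720 bases downstream of the start and past the 3′ end of Nr1d1, had 1277, 1109 and 1605 against 784, 740 and 680, or 1330.3 ± 252.3 (SD, n = 3) against 734.7 ± 52.2 (SD, n = 3), a log2 change of -0.84 (SE 0.13, adjusted p = 1.5e-05, limma). All 3 Taf4a sKO values were below all control values. The deposited table annotates this peak to Nr1d1, but it lies in an intron of Thra, the thyroid hormone receptor alpha gene on the opposite strand, so its assignment to Nr1d1 is uncertain. The other 2 peaks, 8092 and 6754 bases upstream, had log2 changes of 0.21 and -0.21 and did not pass, but the second passed with TMM factors (log2 change -0.32, adjusted p = 0.0347, limma).

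**Figure D4:**
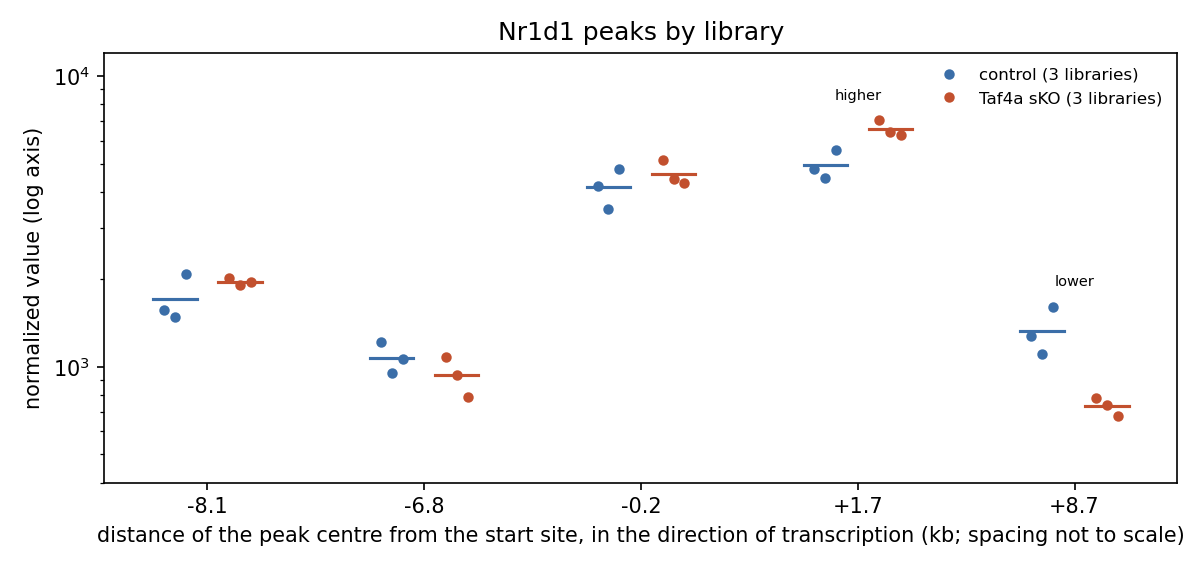
Normalized value (log axis) of the 5 Nr1d1 peaks in 3 control and 3 Taf4a sKO libraries, in order of distance from the start site (kb, spacing not to scale); points are libraries, short lines group means. The peak 1734 bases downstream is higher and the peak 8720 bases downstream is lower in all 3 Taf4a sKO libraries, between 680 and 784 against 1109 to 1605 in control.

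Single distal peaks rose at Per2 and Cry2. The Per2 intronic peak 13066 bases downstream (chr1:91445773-91446742) had 357, 353 and 393 in control and 494, 500 and 475 in Taf4a sKO libraries (log2 change 0.41, SE 0.13, adjusted p = 0.0109, limma), a call lost with quantile normalization (adjusted p = 0.108). The Cry2 peak 8800 bases downstream (chr2:92424709-92425777), on an exon of Cry2 and within an intron of the antisense gene D930015M05Rik, had 1730, 1480 and 2194 against 2706, 2354 and 2338 (log2 change 0.47, SE 0.12, adjusted p = 0.00495, limma). Neither overlapped between genotypes. The remaining Per2, Cry1, Cry2, Per1 and Dbp distal peaks did not pass. Among them the Per1 peak at chr11:69099816-69100198, intronic in GENCODE and over an alternative RefSeq start, which had 971, 928 and 992 against 924, 765 and 738 (log2 change -0.26, adjusted p = 0.0735, limma), passed with TMM factors (log2 change -0.37, adjusted p = 0.00257).

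Within each library, the mean log2 value of a gene's other peaks was also set against that of its promoter peak, a measure that does not depend on the scaling between libraries. For Arntl the control libraries averaged -4.20 ± 0.04 (SD, n = 3) and the Taf4a sKO libraries -3.87 ± 0.08 (SD, n = 3), a difference of 0.33 with no overlap (exact two-sided permutation test, p = 0.1, adjusted p = 0.14 over 7 genes). The smallest p that 3 against 3 libraries allow is 0.1. For Nr1d1 the difference was -0.26 and for Per1 -0.15, both without overlap. At Per1, 2 of the 3 other peaks cover alternative RefSeq starts, so its value is not one of distal against promoter signal. The Nr1d1 value rested on the peak in the Thra intron, and without that peak, an alternative chosen after seeing the data, it was -0.02 with overlap (exact p = 0.8). For Cry1 and Dbp the difference was 0.12 and 0.13, also without overlap (exact permutation p = 0.1 and adjusted p = 0.14 for Nr1d1 with all its peaks, Per1, Cry1 and Dbp each). Per2 (-0.14, exact p = 0.2) and Cry2 (-0.03, exact p = 0.5) overlapped. No value passed the adjusted threshold.

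The wider clock pathway was read from a list of 24 genes, among them kinases, E3 ligase subunits and further clock transcription factors, with 161 peaks. Of these, 52 rose (32.3%) and 11 fell (6.83%), against 28.0% and 13.9% of all peaks, with a median log2 change of 0.19. With TMM factors 43 rose and 25 fell, against 25.4% and 22.3% of all peaks. Without control replicate 2 the number that rose was 33, where 21.3% of all peaks rose. Rora, the nuclear receptor gene whose product activates Arntl at ROR elements, held 75 of the 161 peaks. In the main fit it gave 32 of the 52 peaks that rose and 8 of the 11 that fell. The shares of the list therefore rest largely on Rora and do not describe its other genes. At the peak nearest the start site, 22 of the 24 genes did not pass, 1 fell and 1 rose, while 6.59% of all peaks near start sites fell and 13.1% rose. The one that fell was that of Arntl2, an Arntl paralog, with 738, 732 and 900 in control and 622, 504 and 573 in Taf4a sKO libraries (log2 change -0.48, adjusted p = 0.00351, limma). The one that rose was that of Csnk1e, a kinase that phosphorylates PER proteins, with 788, 723 and 875 against 1017, 945 and 943 (log2 change 0.29, adjusted p = 0.0428, limma). Neither overlapped between genotypes.

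Stronger changes in this list lay away from promoters. A Csnk1e peak 9118 bases upstream had 175, 194 and 219 in control and 663, 576 and 563 in Taf4a sKO libraries, a log2 change of 1.61 (adjusted p = 1e-08, limma). An intronic Npas2 peak, in a gene whose product can pair with ARNTL in place of CLOCK, had 67, 60 and 63 against 171, 171 and 173, a log2 change of 1.43 (adjusted p = 9.8e-07, limma). In Rora introns, peaks 64013, 390778 and 480740 bases downstream had log2 changes of 1.61, 2.07 and 0.92 (adjusted p of 1.3e-07, 1.6e-08 and 7.6e-07, limma), and 1 at 188809 bases had -1.25 (adjusted p = 2.1e-06, limma). Peaks of 1 gene share its locus and are not independent.

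The genotype and cell type labels were read from the same table. The peak over exon 12 of Taf4a, listed under the symbol Taf4 (chr2:179922849-179923263), had 65, 78 and 137 in control and 44, 22 and 25 in Taf4a sKO libraries (log2 change -1.58, adjusted p = 0.00034, limma), with no overlap. Taf4 peaks outside the floxed exons, 44694 and 59348 bases downstream of the start, also fell (-0.83 and -0.49, adjusted p of 0.00014 and 0.0267, limma), and an upstream peak rose (0.55, adjusted p = 0.00295, limma). All 10 MuSC markers examined had a peak, and their summed value at the start sites was 15670, 13507 and 16200 in control and 15596, 14678 and 14687 in Taf4a sKO libraries. Pax7, the most open of them, fell (log2 change -0.32, adjusted p = 0.0302, limma), whereas Myod1 and Vcam1 rose (0.29 and 0.35, adjusted p = 0.0284 and 0.0184, limma). Of 5 haematopoietic markers 1 had an annotated peak, Cd68, with 201, 208 and 307 against 129, 133 and 129, and Ptprc, Cd3e, Lyz2 and Itgam had none. The 4 of 5 endothelial markers with a peak summed to 1514, 1312 and 1845 against 1993, 1992 and 1888, most of it at Tek, while Pecam1, Cdh5 and Kdr were between 65 and 151 in every library and Emcn had no peak. The 3 of 4 fibro-adipogenic markers with a peak summed to 205, 194 and 204 against 371, 326 and 334. Dcn, with 89, 93 and 102 against 176, 177 and 156, had the highest values of them, and Ly6a had no peak. The 5 muscle fibre markers summed to 2477, 2284 and 2805 against 2632, 2367 and 2397, with the highest values at Myh1. For each marker the annotated peak nearest the start site was used, and not all of these were promoter peaks. Pecam1 and Cdh5 peaks lay 8013 and 10189 bases away, and those of Acta1 and Tnnt3 3196 and 1700. The peak of the fibro-adipogenic marker Pdgfra lay 2177 bases away and was weak, with values of 23 to 56. Among these other markers Tek, Dcn and Lum rose (log2 changes of 0.40, 0.84 and 1.31, adjusted p of 0.0101, 0.00032 and 6.9e-06, limma). Cd68, the fibro-adipogenic marker Pdgfra and the muscle fibre marker Acta1 fell (-0.84, -0.68 and -0.67, adjusted p of 0.00037, 0.0439 and 0.00085, limma). These values moved with genotype, and the part of other cells in the clock gene results was not tested. Fewer cells with an open region and less opening per cell cannot be told apart in these bulk libraries.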

How the data were processed

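ATAC-seq of freshly isolated MuSCs was analysed, with 3 control and 3 Taf4a sKO libraries. The authors trimmed reads with Trimmomatic 0.39, aligned them with STAR 2.7.11b to mm10, removed duplicates with Picard 3.1.1, called peaks in each sample, unified them and counted reads per peak.  The values the authors deposited are a score per peak, counts scaled for sequencing depth and rounded, so they are not raw counts and counting intervals were not given. The table held no unused per-sample column. The methods do not mention shifting reads for the Tn5 insertion.

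From these values, a trended, robust limma model (limma 3.58.1 in R 4.3.3) was fitted to log2(value + 1) over the 75384 peaks with a mean above 10. A fold change on this scale understates that of low peaks. Exact permutation tests and sequence searches used Python 3.11.15. Gene positions in the table matched GENCODE vM21 for 99.3% of the 21350 genes found in both and for all 10 clock genes. Pearson correlations of log2 values across peaks were 0.980 to 0.989 within and 0.927 to 0.938 between genotypes. The study calls the libraries biological replicates, and p-values measure the spread between these libraries.

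The clock genes, the other lists and the tests were chosen with earlier results of these data known. Values in every library were given for each gene's peak nearest its start site and for every clock gene peak with adjusted p under 0.05. For the wider list, genes called at the peak nearest the start site and the 6 further peaks with the smallest p were named. The Per1 and Nr1d1 peaks that passed under other scalings were named after its values were seen. 1 gene of the marker lists was not analysed here. Alternatives covered scaling, the minimum value, the pseudocount, the thresholds, the replicate block, peaks near the genes and each library left out.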

Additional observations from a re-analysis of the deposited data

How the results depend on the processing

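The number of clock gene peaks that fell was 5 with TMM factors, 6 with equal total signal and 7 with quantile normalization, where 22.3%, 25.8% and 25.1% of all peaks fell, and 3 when all peaks within 10000 bases of the genes were counted. With 1 library left out, 8 to 20 rose and 1 to 3 fell, the highest numbers without control replicate 3, while 21.3% to 37.8% of all peaks rose and 11.4% to 13.3% fell. Promoter peaks passed as higher without control replicate 3 at Per2, Arntl, Cry2, Clock and Nr1d1 (adjusted p 0.00135 to 0.0242, limma). With quantile normalization Arntl and Per2 passed as higher and Dbp as lower (adjusted p of 0.00061, 0.00247 and 0.00455, limma). The same 3 genes passed in these directions with TMM factors (0.0244, 0.029 and 0.0331, limma). With equal total signal Arntl passed as higher and Dbp as lower (0.0382 and 0.00506, limma). Among all peaks near start sites, 29.5% rose and 6.53% fell without control replicate 3, and 11.6% and 33.2% with quantile normalization. These shares were 12.6% and 22.1% with TMM factors, and 10.6% and 31.9% with equal total signal. Beyond the peaks nearest the start sites, peaks that passed as lower under other scalings were the Per1 peaks 3632 (adjusted p 0.00268 to 0.0195 over the 3 scalings, limma) and 4790 bases downstream (0.00057 to 0.00257) and Nr1d1 6754 bases upstream (0.0112 to 0.0347) under all 3, the Arntl peak 13534 bases downstream under equal total signal and quantile normalization (0.0355 and 0.00837), and the Cry2 peak 6012 bases downstream under quantile normalization (0.0318). Calls were lost at Per2 with quantile normalization and at Arntl, 53200 bases downstream, with quantile normalization and without 4 of the 6 libraries in turn. In the wider list, 25, 33 and 33 fell under the 3 scalings, and 33 to 73 rose with 1 library left out. At a 1.5-fold threshold 4 clock gene peaks were gained and 1 was lost, against 19.4% and 11.5% of all peaks. Promoter directions turned with TMM factors and equal total signal at Per1 (-0.006 and -0.043), Per3 (-0.018 and -0.055), Cry1 (-0.029 and -0.066) and Nr1d2 (-0.021 and -0.058), with quantile normalization at Per3 and Cry1 (-0.025 each), with equal total signal at Clock (-0.014), and without control replicate 3 at Dbp (-0.145 to 0.012 with 1 library left out). With TMM factors and equal total signal the summed signal turned below 1-fold at Cry1 (0.994 and 0.969), Per1 (0.971 and 0.947), Per3 and Nr1d2 (0.987 and 0.962 each), and with equal total signal at Clock (0.990). The difference between distal and promoter signal at Cry2 ran from -0.057 to 0.003 with 1 library left out. These alternatives set different medians over all peaks (-0.006, -0.042 and -0.024) by construction, and other causes were not tested.

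The labels give both genotypes replicate numbers 1 to 3, but same-numbered libraries did not deviate together (correlations of 0.11, -0.118 and -0.029, against -0.12 to 0.151 for other pairs). With the replicate number as a block, 9 clock gene peaks rose and 1 fell, all of them shared with the fit without it. In the wider list 53 rose and 11 fell with this block, and among all peaks 29.1% rose and 14.6% fell. The planned count test was not run because the deposited values are not raw counts.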
